A study of Mus musculus with 10 samples.

Results

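The ADAMTS genes encode secreted zinc proteases, and 10 of them (Adamts1, Adamts2, Adamts4, Adamts5, Adamts7, Adamts9, Adamts10, Adamts12, Adamts13 and Adamts15), chosen by name, were followed here among the 36047 genes with transcripts in the files. Their RNA was measured in mouse hepatic stellate cells, the retinoid-storing pericytes of the liver sinusoid. The cells were labelled quiescent and came from C57BL/6 males. They were held in culture for 5 h and then in starving medium for 4 h, with recombinant mouse amphiregulin (Areg, a ligand of the EGF receptor) at 500 ng/mL in 5 libraries and as the control in 5. The labels do not say that each library is its own mouse or culture, so the p-values speak of the spread among these 10 libraries, which may be technical.

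ADAMTS proteases are made as proenzymes, are cut by furin-like convertases and act outside the cell on matrix and plasma proteins. Their zinc-binding catalytic domain is followed by thrombospondin-type repeats that hold the enzyme to matrix and substrate. The family falls into groups by substrate: those that cut versican and related proteoglycans, those that remove the N-propeptide of fibrillar procollagens, those that cut cartilage oligomeric matrix protein, those tied to fibrillin microfibrils, and ADAMTS13, which cuts von Willebrand factor. Hepatic stellate cells are known as a main source of plasma ADAMTS13.

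The coding bases of the zinc-binding site are shown first because they are the feature that all 10 genes share. Each run of 33 bases is given 5′ to 3′ on the coding strand, from the GRCm38 genome with GENCODE M21 gene models. Capitals mark the codons of the catalytic glutamate, of the histidine before it and of the other two zinc-binding histidines.
Adamts1: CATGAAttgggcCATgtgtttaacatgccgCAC
Adamts2: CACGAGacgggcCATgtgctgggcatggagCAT
Adamts4: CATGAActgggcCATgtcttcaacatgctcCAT
Adamts5: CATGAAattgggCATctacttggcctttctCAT
Adamts7: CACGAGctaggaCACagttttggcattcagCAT
Adamts9: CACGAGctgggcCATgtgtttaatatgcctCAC
Adamts10: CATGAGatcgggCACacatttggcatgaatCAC
Adamts12: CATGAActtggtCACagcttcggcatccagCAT
Adamts13: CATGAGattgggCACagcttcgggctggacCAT
Adamts15: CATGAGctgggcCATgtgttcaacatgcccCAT
The eighth codon read asparagine in Adamts1, Adamts4, Adamts9 and Adamts15 and glycine in the other 6 genes; any codon was allowed there, because a search with glycine alone had found only those 6. Adamts4 and Adamts15 were the most alike pair, with 30 of 33 bases identical. Adamts13 shared 16 bases with Adamts1 and 16 with Adamts9, the lowest of all pairs.

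In every gene the site was split between adjoining coding exons, so its genomic span includes an intron. The exon that came first held 10 of the 33 bases in Adamts1, Adamts4, Adamts5 and Adamts15, and 17 in the others. On the minus strand lay the sites of Adamts1 (chr16:85799191-85799545, exons 3 and 4), Adamts5 (chr16:85878015-85887826, exons 2 and 3), Adamts9 (chr6:92905285-92908493, exons 8 and 9) and Adamts15 (chr9:30911255-30911690, exons 2 and 3). On the plus strand lay those of Adamts2 (chr11:50775403-50776134, exons 7 and 8), Adamts4 (chr1:171253210-171253915, exons 3 and 4) and Adamts7 (chr9:90179456-90180640, exons 7 and 8). The sites of Adamts10 (chr17:33538157-33538279, exons 9 and 10), Adamts12 (chr15:11241529-11255564, exons 7 and 8) and Adamts13 (chr2:26978681-26981084, exons 6 and 7) were also on the plus strand. Adamts1 and Adamts5 are neighbours, 53.059 kb apart on chromosome 16 with 0 coding genes between them.

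Libraries held 10125184 to 20057962 estimated counts. Controls 3 and 4 lay apart, at 46.6 and 28.6 on the first principal component against -16.5 to 0.455 for the other 8 libraries, and they were also the shallowest. Relative to each gene's mean over the 10 libraries, their log2 CPM (counts scaled to library size with TMM factors) rose with transcript GC content. The slope, fitted together with transcript length, was 0.27 and 0.17 per 10 percentage points. It was -0.022 to 0.033 in the other controls and -0.12 to -0.067 in the Areg libraries. Being relative, the slopes of the 10 libraries balance out, so steep ones in controls 3 and 4 lower those of the others. All 14 stellate cell markers averaged at least 1 CPM and summed to 12547 to 13287 CPM in controls and 11924 to 12287 in Areg libraries. The largest parts of that sum were Dcn (mean 5260 and 5259 CPM), Ecm1 (3537 and 2946) and Reln (1897 and 1705). The 8 endothelial markers summed to 4579 to 5002 CPM in controls and 4600 to 4728 with Areg, the 8 macrophage markers to 508 to 560 and 503 to 548, and the 8 hepatocyte markers to 1007 to 1719 and 1138 to 1409. By edgeR at an adjusted p under 0.05, 5 of the 14 stellate cell markers were lower with Areg and 0 higher. Of the hepatocyte markers 1 was lower (Hnf4a) and 1 higher (Cyp2e1), and 0 endothelial and 0 macrophage markers were called. Among all genes tested 8.32% were lower and 8.34% higher. The 6 cholangiocyte markers summed to 39.7 to 49.8 CPM in controls and 82.0 to 95.2 with Areg, nearly all of it Spp1 (mean 39.7 and 81.9 CPM). Sox9 was also higher with Areg on average (2.36 and 3.35 CPM, log2 fold change 0.54, edgeR adjusted p = 0.0651). It passed without controls 3 and 4 (0.74, adjusted p = 0.0101). The keratin genes Krt19 (0.994 and 0.580) and Krt7 (0.894 and 0.766) and Epcam (0.510 and 0.176) averaged under 1 CPM and were lower with Areg on average. At least 1 CPM on average was reached by 2 of the 6 cholangiocyte markers, 5 of the 6 vascular smooth muscle markers, 6 of the 8 portal fibroblast and mesothelial markers and 1 of the 6 lymphocyte and neutrophil markers. None of these markers was at 0 in all libraries, and their part in the results below was not tested. In such bulk samples fewer cells of a type and less RNA per cell cannot be told apart.

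The 10 genes spanned more than 3 orders of magnitude in TPM, a transcript level scaled to length and library total. Adamts1, a versican- and aggrecan-cutting protease, stood first with a mean of 541 TPM over the 10 libraries (range 493 to 663), rank 258 among the 13362 genes tested. Adamts4, the aggrecanase named for its action on cartilage proteoglycan, followed at 189.6 TPM (range 169.6 to 208), and Adamts9, which cuts versican, at 109 TPM (range 95.2 to 123). Adamts13 came next at 47.1 TPM (39.5 to 56.9) and Adamts2, a procollagen N-proteinase, at 18.2 TPM (13.6 to 25.8). Those 5 genes were clearly ordered, since the ranges of neighbours did not overlap.

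Adamts10, which associates with fibrillin microfibrils, had a mean of 7.88 TPM (range 6.20 to 10.6), Adamts7 7.75 TPM (6.38 to 9.74) and Adamts12 6.67 TPM (4.88 to 7.21). The ranges of Adamts10 and Adamts7 overlapped, as did those of Adamts7 and Adamts12, so their order is not given by these data. Adamts5, an aggrecanase, followed at 2.52 TPM (1.87 to 2.89), and Adamts15, another proteoglycan-cutting member, came last at 0.21 TPM (0.091 to 0.409) from 4 to 21 estimated counts a library. The 10 genes made up 98.2% ± 0.147 (SD, n = 5) of the TPM of all 19 ADAMTS protease genes listed in controls and 98.7% ± 0.0737 with Areg. The rest came mainly from Adamts14 (mean 14.1 TPM in controls and 9.59 with Areg) and Adamts3 (2.78 and 2.40). The other 7 genes had too few counts to be tested, and Adamts16 and Adamts20 had none.

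**Figure D1:**
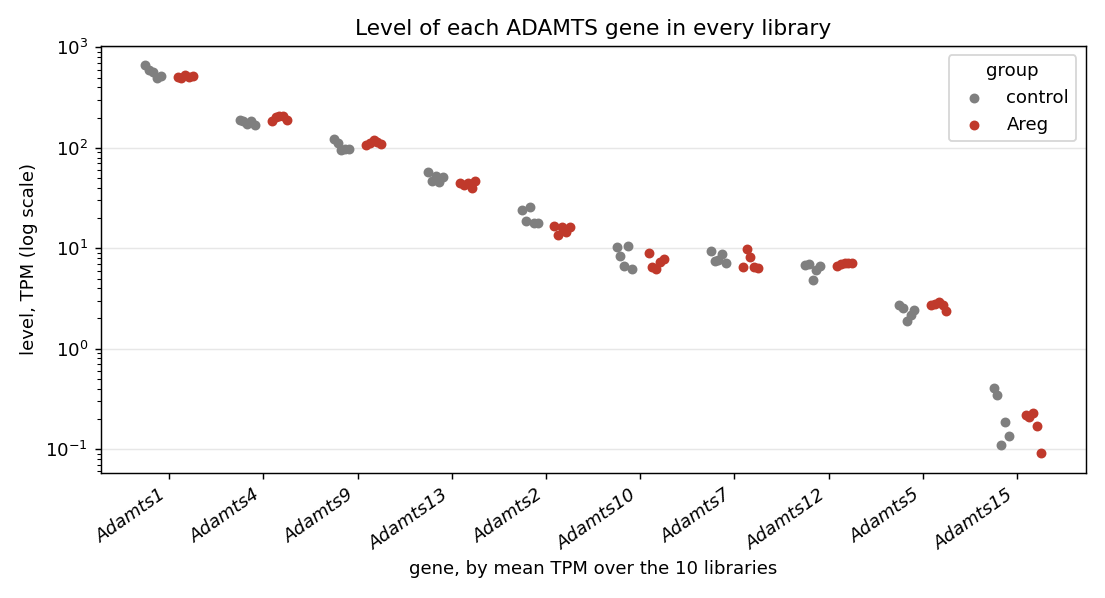
Level of each ADAMTS gene in TPM (log axis) in the 5 control and 5 Areg libraries, 1 point a library, with genes in order of mean TPM. Adamts1 lies at 493 to 663 TPM and Adamts15 at 0.091 to 0.409, and of all neighbours only Adamts10 with Adamts7 and Adamts7 with Adamts12 overlap.

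Areg was set against control to ask which of these genes differed in RNA level. Of the 10, 1 was called higher (Adamts4) and 2 lower (Adamts2 and Adamts13) by edgeR's quasi-likelihood test at an adjusted p under 0.05, over all 13362 genes tested. The changes were small, between a fall of 17.8% and a rise of 12.3%. Among all genes tested 16.7% were called, 8.34% higher and 8.32% lower, so 3 of 10 is near the background and is no result about the family. The median log2 fold change (Areg minus control) of the 10 was -0.12, and that of all genes tested was -0.0067. At an unadjusted p under 0.05 there were 7 of the 10, against 31.4% of all genes tested, and in 2 of the 10 (Adamts2 and Adamts12) the CPM of the groups did not overlap, against 14.7% of all.

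The fold changes of all genes in this comparison went with transcript GC content. The median log2 fold change was 0.12 among genes under 45% GC, 0.046 from 45 to 50%, -0.051 from 50 to 55%, -0.14 from 55 to 60% and -0.21 over 60%. The genes of the family with a positive fold change were Adamts5, Adamts12 and Adamts9, at 43.7, 46.7 and 48.9% GC, and Adamts4 at 55.2%. The other 6 lay between 49.96 and 57.8% GC. When each library's trend in transcript length and GC content was taken out, 3 of the 10 were again called (13.5% of all genes tested), but they were Adamts4, Adamts9 and Adamts12, all higher, and 0 were lower (edgeR; 5 of the 10 at an unadjusted p under 0.05). The relative GC slopes of the groups did not overlap (-0.12 to -0.067 with Areg, -0.022 to 0.27 in controls). Taking out the trend therefore also takes out any effect of Areg that goes with GC content, and these cannot be told apart.

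**Figure D2:**
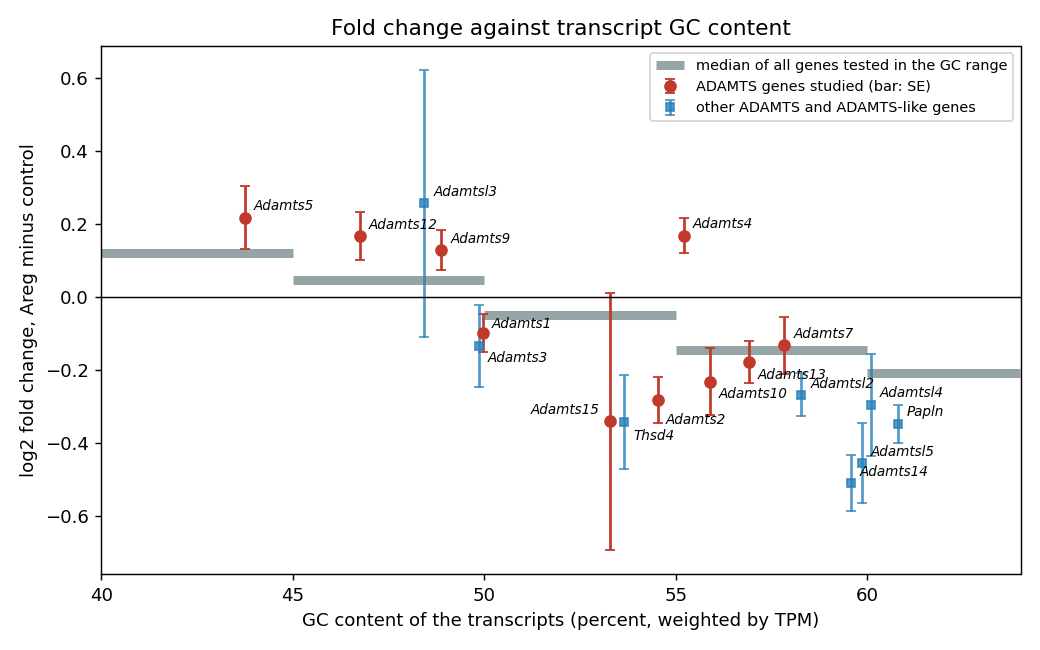
Log2 fold change (Areg minus control) against transcript GC content in percent, with SE bars, for the 10 ADAMTS genes and for the tested ADAMTS and ADAMTS-like genes outside them. Grey bars are medians of all genes tested in each GC range, falling from 0.12 to -0.21; Adamts4 lies at 0.17 where that median is -0.14.

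Among the proteoglycan-cutting members, Adamts4 (chr1:171250421-171260637, plus strand, GRCm38) rose. Its controls 1 to 5 read 458, 472, 461, 496 and 442 CPM and its Areg libraries 1 to 5 read 488, 544, 541, 545 and 498 CPM. The groups met at control 4, which was above Areg library 1, and the other 4 Areg libraries were above every control. The means were 466 ± 19.96 and 523 ± 27.8 CPM (SD, n = 5), a difference of 0.17 ± 0.049 on the log2 scale (SE; edgeR, adjusted p = 0.0270), or a rise of 12.3%. Removing the length and GC trend gave 0.31 (adjusted p = 4.0e-05), and without controls 3 and 4 it was 0.20 (adjusted p = 0.00399). The call was lost when control 5 or Areg library 2, 3 or 4 was left out, with adjusted p up to 0.0855.

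Adamts9, close to Adamts4 in CPM, read 519, 489, 435, 451 and 441 CPM in controls 1 to 5 and 480, 510, 537, 526 and 500 CPM in Areg libraries 1 to 5. Controls 1 and 2 lay within the Areg range and the other 3 controls below it. The means were 467 ± 36.1 and 511 ± 22.2 CPM (SD, n = 5), a difference of 0.13 ± 0.055 on the log2 scale (SE; edgeR, adjusted p = 0.119), which did not pass. It passed with the length and GC trend removed, at 0.16 (adjusted p = 0.00788), and without control 1, at 0.17 (adjusted p = 0.0264), but was 0.082 without controls 3 and 4 (adjusted p = 0.289).

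Adamts1, the most abundant member, read 1683, 1594, 1539, 1397 and 1470 CPM in controls and 1407, 1408, 1443, 1453 and 1456 CPM with Areg. Controls 1, 2, 3 and 5 were above every Areg library and control 4 was below all of them. The log2 fold change was -0.10 ± 0.052 (SE, edgeR adjusted p = 0.199), and without controls 3 and 4 it was -0.14 (adjusted p = 0.0264). In TPM, Adamts1 took 58.7% ± 1.53 (SD, n = 5) of the family's level in controls and 55.7% ± 0.805 with Areg, while Adamts4 took 18.7% ± 1.42 and 21.6% ± 0.932. Adamts9 took 10.8% ± 0.484 and 12.3% ± 0.287.

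Adamts5 lies beside Adamts1 in the genome and was among the scarcest members. It read 16.7, 16.6, 12.7, 14.5 and 16.1 CPM in controls and 18.0, 18.5, 19.0, 18.2 and 15.8 CPM with Areg. Areg library 5 fell within the control range and the other 4 were above it. The log2 fold change was 0.22 ± 0.087 (SE, edgeR adjusted p = 0.0961), and without controls 3 and 4 it was 0.12 (adjusted p = 0.330). Adamts15 read 0.402 to 1.20 CPM in controls (median 0.65) and 0.329 to 0.807 with Areg (median 0.717), with a log2 fold change of -0.34 ± 0.35 (adjusted p = 0.547), so a difference was not detectable at this depth.

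Among the procollagen N-proteinases, Adamts2 (chr11:50602084-50807573, plus strand, GRCm38) fell. It read 76.8, 66.6, 82.5, 70.6 and 67.3 CPM in controls 1 to 5 and 63.5, 56.6, 57.9, 60.2 and 60.6 CPM in Areg libraries 1 to 5. Every Areg library was below every control. The means were 72.8 ± 6.80 and 59.8 ± 2.68 CPM (SD, n = 5), a difference of -0.28 ± 0.064 on the log2 scale (SE; edgeR, adjusted p = 0.00647), and the level fell by 17.8%. The call was kept whichever library was left out, with adjusted p up to 0.0261, and without controls 3 and 4 together (-0.23, adjusted p = 0.00555). With the length and GC trend removed it was lost, at -0.14 (adjusted p = 0.0784), and also without controls 3 and 4 under that setting, at -0.11 (adjusted p = 0.142).

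Of the 9 ADAMTS protease genes outside the 10, 2 were tested, Adamts14 and Adamts3, both of them procollagen N-proteinases. Adamts14 fell, from 42.3, 41.7, 50.004, 36.4 and 42.1 CPM in controls to 29.9, 27.1, 32.0, 32.3 and 27.9 CPM with Areg. No Areg library reached the lowest control, and the log2 fold change was -0.51 ± 0.077 (SE, edgeR adjusted p = 0.000427). It was called under all 22 alternatives, the trend-removed one included (-0.28, adjusted p = 0.00846). Adamts3 had 4.93 to 5.72 CPM in controls and 4.20 to 5.15 with Areg (log2 fold change -0.14 ± 0.11 SE, adjusted p = 0.438). Summed over Adamts2, Adamts3 and Adamts14, the level was 37.7 ± 5.09 TPM in controls and 27.5 ± 1.93 with Areg (SD, n = 5).

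Adamts13 (chr2:26973416-27009628, plus strand, GRCm38) also fell. It read 109, 93.8, 109, 93.1 and 102 CPM in controls 1 to 5 and 90.5, 88.4, 90.7, 82.1 and 95.6 CPM in Areg libraries 1 to 5. Areg library 5 was above controls 2 and 4, and the other 4 Areg libraries were below every control. The means were 101 ± 7.62 and 89.5 ± 4.87 CPM (SD, n = 5), a difference of -0.18 ± 0.058 on the log2 scale (SE; edgeR, adjusted p = 0.0426), and the level fell by 11.7%. Removing the length and GC trend gave -0.0094 (adjusted p = 0.940), and the call was lost under 13 of 22 alternatives, among them 7 of the 10 that left out a library; it was kept without control 2, control 4 or Areg library 5. Without controls 3 and 4 together it was -0.18 (adjusted p = 0.0199). Its substrate gene Vwf had 7.46 ± 1.15 CPM in controls and 6.53 ± 0.429 with Areg (adjusted p = 0.242).

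Adamts12 and Adamts7, which cut cartilage oligomeric matrix protein, did not pass. Adamts12 read 33.1, 32.8, 26.2, 32.5 and 33.2 CPM in controls and 33.6, 35.3, 36.3, 36.3 and 36.1 CPM with Areg. Every Areg library was above every control, though Areg library 1 only narrowly, and control 3 was far below the other controls. The log2 fold change was 0.17 ± 0.066 (SE, edgeR adjusted p = 0.0957), 0.18 with the trend removed (adjusted p = 0.0289) and 0.11 without controls 3 and 4 (adjusted p = 0.219). Adamts7 read 20.4, 20.6, 21.3, 21.8 and 16.9 CPM in controls and 17.2, 19.7, 19.0, 18.2 and 17.6 CPM with Areg. Control 5 was below every Areg library and the other 4 controls above them, with a log2 fold change of -0.13 ± 0.078 (adjusted p = 0.258) that turned to 0.062 with the trend removed (adjusted p = 0.626) and was -0.072 without controls 3 and 4 (adjusted p = 0.616).

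Adamts10 read 15.4, 15.6, 13.3, 13.8 and 12.3 CPM in controls and 11.6, 13.5, 11.1, 11.2 and 12.7 CPM with Areg. The groups overlapped, with 3 of 5 Areg libraries below every control. The log2 fold change was -0.23 ± 0.092 (SE, edgeR adjusted p = 0.0921), and it was -0.094 with the trend removed (adjusted p = 0.574).

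**Figure D3:**
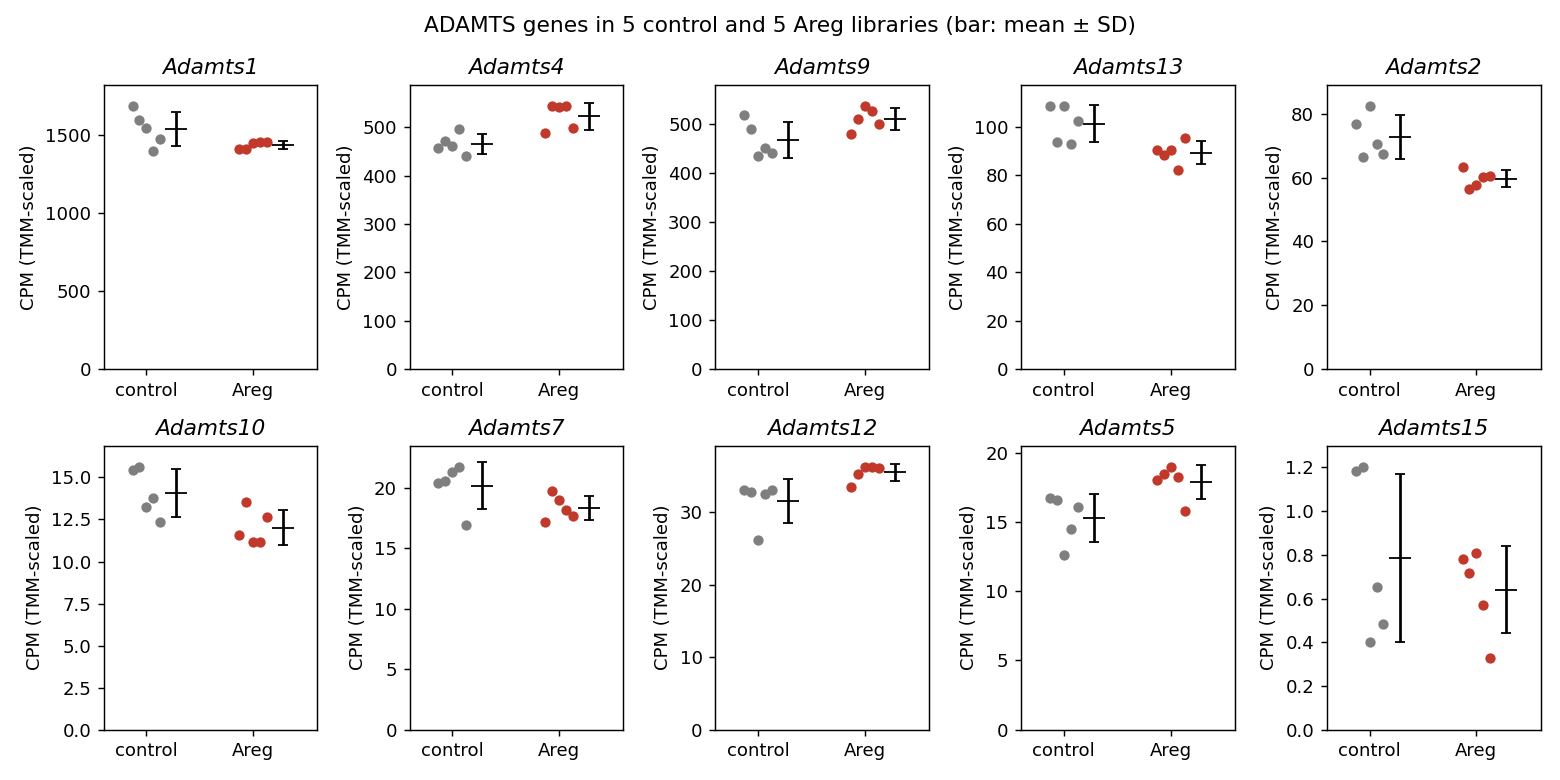
TMM-scaled CPM of each ADAMTS gene in the 5 control (grey) and 5 Areg (red) libraries, 1 point a library in order of replicate number, with mean ± SD beside them and axes from 0. Groups are apart in Adamts2 (66.6 to 82.5 against 56.6 to 63.5 CPM) and, narrowly, in Adamts12 (26.2 to 33.2 against 33.6 to 36.3 CPM).

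**Figure D4:**
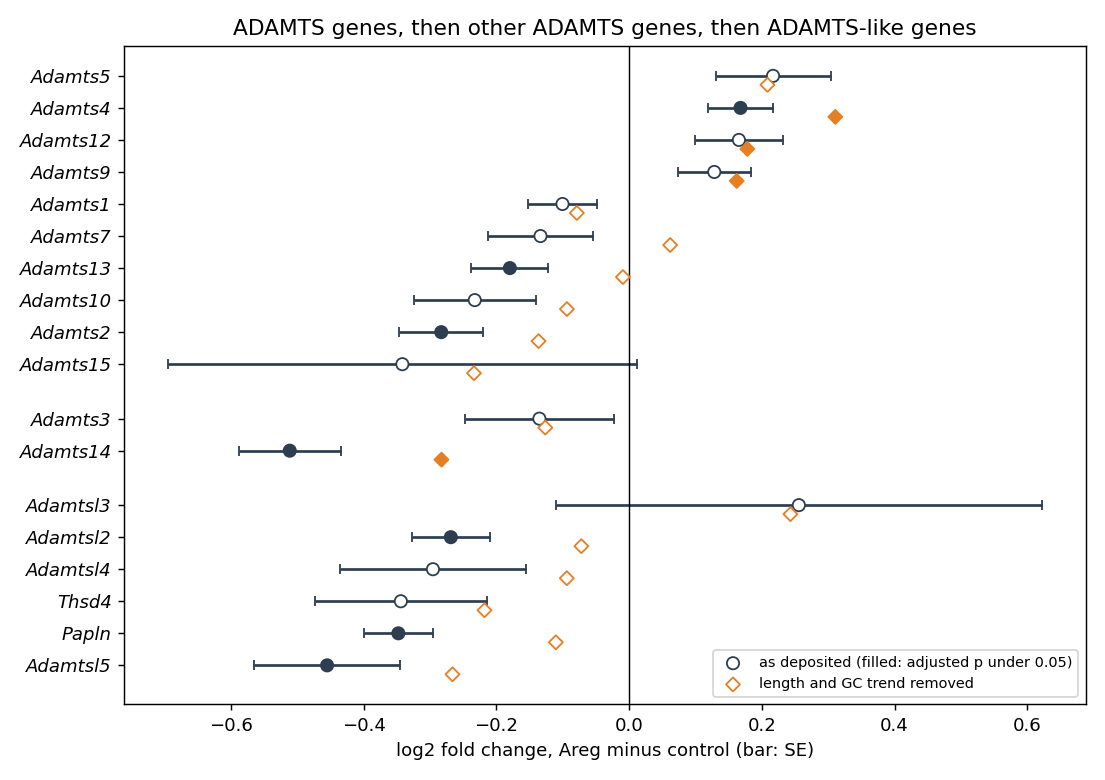
Log2 fold change (Areg minus control, x axis) of the tested ADAMTS and ADAMTS-like genes (y axis), with SE bars, as deposited (circles) and with the length and GC trend removed (diamonds); filled symbols have an adjusted p under 0.05. Adamts2 moves from -0.28 to -0.14 and Adamts13 from -0.18 to -0.0094, while Adamts4 moves from 0.17 to 0.31.

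The transcript forms were compared for the 8 members with at least 2 annotated transcripts and a mean of at least 1 TPM. The share of the gene's TPM that came from its leading transcript passed in 0 of 8 (two-sided exact permutation test, Benjamini-Hochberg over 8; 0 at an unadjusted p under 0.05), where the smallest p that 5 against 5 libraries allow is 0.00794. The lowest p was for Adamts9-201, the form that holds the zinc-binding site, at 86.2% ± 1.26 of Adamts9 in controls and 84.8% ± 0.608 with Areg (SD, n = 5; exact p = 0.0714, adjusted p = 0.381). Adamts2-201 made up 78.4% ± 7.05 and 84.5% ± 5.00, and Adamts7-207 39.5% ± 10.3 and 48.0% ± 10.04. In Adamts1, Adamts4, Adamts12 and Adamts13 the leading coding form held on average 88.6% or more of the gene in both groups. kallisto estimates these splits, and their depth is that of the gene.

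Adamts10 stood out by its mix of forms. Its leading transcript, Adamts10-208, is annotated as a retained intron and held only 17.3% ± 4.74 of the gene's TPM in controls and 19.1% ± 5.6 with Areg. Transcripts that hold the zinc-binding site printed above in their annotated reading frame, 2 of its 15, made up 16.04% ± 8.24 and 9.51% ± 5.46 (SD, n = 5). The same share was 78.8% ± 9.19 and 77.1% ± 12.8 in Adamts7 and, as a single form each, that of Adamts2-201 and Adamts9-201. In Adamts4 and Adamts5 every annotated transcript holds the site in frame, and in Adamts1 the 2 that do made up 98.5% ± 0.345 and 98.7% ± 0.433.

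The promoters of the pair that fell are shown because both have an entry in the RefSeq table (GRCm38.p6), which matched 5 of the 10 members (Adamts1, Adamts2, Adamts9, Adamts12 and Adamts13). Each runs 300 bases on the gene's strand, across the transcription start. Capitals mark matches to the motifs searched on both strands, which were AP-1 (TGANTCA), CRE (TGACGTCA), EGR (GCGNGGGCG), TEAD (GGAATG), ETS (CCGGAAGT) and NF-kappaB (GGG, any 5 bases, CC).
Adamts2: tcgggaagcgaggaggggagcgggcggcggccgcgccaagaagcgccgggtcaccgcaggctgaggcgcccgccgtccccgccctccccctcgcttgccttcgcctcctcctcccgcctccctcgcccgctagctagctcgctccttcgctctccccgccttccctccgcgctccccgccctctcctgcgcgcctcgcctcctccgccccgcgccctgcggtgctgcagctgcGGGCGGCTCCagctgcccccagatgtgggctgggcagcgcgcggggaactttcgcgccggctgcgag
Adamts13: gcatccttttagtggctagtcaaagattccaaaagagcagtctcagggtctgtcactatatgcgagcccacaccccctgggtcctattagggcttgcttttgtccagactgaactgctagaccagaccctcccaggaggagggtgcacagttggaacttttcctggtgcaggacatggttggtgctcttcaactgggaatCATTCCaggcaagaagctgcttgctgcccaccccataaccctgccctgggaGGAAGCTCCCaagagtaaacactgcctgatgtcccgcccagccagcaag
The Adamts2 window (chr11:50601835-50602134, plus strand) was 77.3% GC, above 97.8% of the 32851 promoters in the table, with 1 NF-kappaB match on the plus strand. The Adamts13 window (chr2:26973166-26973465, plus strand) was 54.7% GC, above 55.6% of promoters, with 1 TEAD match and 1 NF-kappaB match, both on the minus strand. The NF-kappaB letters occur in 50.8% of all promoters of this length and the TEAD letters in 14.7%. No AP-1, CRE, EGR or ETS match was in the 5 members' windows, and those letters occur in 7.81, 1.79, 5.55 and 3.89% of all promoters. These matches describe letters only.

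The genes most like the called members over the 10 libraries, by Pearson correlation of log2 CPM, are given as a description, since the points share the group difference and the depth and GC slopes of their libraries. For Adamts4 they were Selp (0.982), which encodes the adhesion receptor P-selectin, and Il17ra (0.967), an interleukin receptor. For Adamts2 they were Eif4h (0.985), Cbx7 (0.977) and Ppp6r1 (0.973). For Adamts13 they were Hmces (0.952), Igsf23 (0.944) and Hist2h3c1 (0.921), a histone gene with near-identical copies whose counts are uncertain. Selp and Il17ra were themselves called higher (log2 fold changes 0.40 and 0.24), and the 3 genes nearest to Adamts2 were called lower (-0.13, -0.68 and -0.23). Those nearest to Adamts13 did not pass (Hmces adjusted p = 0.164, Igsf23 0.103, Hist2h3c1 0.188).

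The ADAMTS-like genes encode secreted relatives without the protease domain that bind fibrillin microfibrils and basement membranes. Of the 6 tested of 7 (papilin included), 0 were higher and 3 lower, beside 16.7% called among all genes tested. The median log2 fold change of the 6 was -0.32. Papln, which encodes papilin, a basement membrane glycoprotein, fell from 137 ± 6.81 to 108 ± 6.66 CPM (SD, n = 5; log2 fold change -0.35 ± 0.052 SE, edgeR adjusted p = 0.000425). Adamtsl2, a microfibril-associated member, fell from 81.9 ± 7.19 to 67.9 ± 1.71 CPM (-0.27 ± 0.059, adjusted p = 0.00550), and Adamtsl5 fell from 7.68 ± 0.412 to 5.61 ± 0.7102 CPM (-0.46 ± 0.11, adjusted p = 0.0101). Thsd4 was at -0.34 ± 0.13 (adjusted p = 0.0778). These genes lay between 48.4 and 60.8% GC, and with the length and GC trend removed 0 of the 6 were called (edgeR; 2 at an unadjusted p under 0.05).

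Of 22 genes for substrates and matrix partners, 15 were tested, 2 rose and 5 fell, beside 8.34% higher and 8.32% lower among all genes tested. The median log2 fold change of the 15 was -0.12, and that of all genes tested was -0.0067. Thbs1, whose thrombospondin-1 protein is cut by ADAMTS1, rose from 659 ± 64.2 to 994 ± 82.9 CPM (SD, n = 5; log2 fold change 0.59 ± 0.070 SE, edgeR adjusted p = 6.1e-05). Sdc4, a cell-surface heparan sulfate proteoglycan, rose from 91.2 ± 1.53 to 111 ± 5.38 CPM (0.29 ± 0.046, adjusted p = 0.000787). The procollagen genes Col1a2 and Col3a1, whose products are N-propeptide substrates, fell, Col1a2 by 0.34 (adjusted p = 0.00168) and Col3a1 by 0.26 on the log2 scale (adjusted p = 0.00491). With the trend removed 2 were higher and 3 lower, where 13.5% of all genes tested were called, and these 4 named genes were called in the same direction. The Col3a1 call was lost with the effective length offset (-0.17, adjusted p = 0.538) and on log2(TPM + 1) and log2(TPM + 0.1) (adjusted p = 0.588 and 0.595). Vcan, the versican gene, was at 11.52 ± 1.93 CPM in controls and 12.2 ± 0.717 with Areg (adjusted p = 0.667), and Acan, the aggrecan gene, had no counts in any library.

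Of 12 genes for inhibitors, activating convertases and clearance receptors, 10 were tested, 1 rose and 3 fell, with a median log2 fold change of -0.039, beside 16.7% called among all genes tested. With the trend removed 2 were higher and 2 lower, beside 13.5%. Lrp1, the endocytic receptor that clears ADAMTS4 and ADAMTS5, fell from 893 ± 73.9 to 677 ± 38.4 CPM (SD, n = 5; log2 fold change -0.40 ± 0.059 SE, edgeR adjusted p = 0.000394). It was called under all 22 alternatives, but the log2 fold change was only -0.13 with the trend removed (adjusted p = 0.0409). Timp1, a metalloproteinase inhibitor, rose from 33.01 ± 3.98 to 40.1 ± 3.30 CPM (0.29 ± 0.080, adjusted p = 0.0217). The Timp1 call was lost under 5 of 22 alternatives, among them those without Areg library 4 (adjusted p = 0.0659) or 5 (0.0525). Furin, which cuts the ADAMTS propeptides, fell from 251 ± 24.6 to 217 ± 7.28 CPM (-0.21 ± 0.059, adjusted p = 0.0219), but read 0.018 on the log2 scale under trend removal (adjusted p = 0.763). Of 22 alternatives, Furin lost its call under 7 and reversed sign under 2. The losses included the fit without controls 3 and 4 together (-0.11, adjusted p = 0.0738). They also included those without control 4, Areg library 2 or Areg library 5 (adjusted p up to 0.0703). Reck, a membrane-anchored inhibitor, fell from 23.1 ± 1.01 to 20.1 ± 0.690 CPM (-0.21 ± 0.062, adjusted p = 0.0317). The Reck call was lost under 14 of 22 alternatives (adjusted p up to 0.258), and of the 10 that left out a library it was kept without control 1 or control 3 alone. Timp3, the main inhibitor of ADAMTS4 and ADAMTS5, was at 960 ± 61.2 CPM in controls and 1067 ± 35.8 with Areg. It missed the threshold (0.15 ± 0.051, edgeR adjusted p = 0.0507). It passed with the trend removed, at 0.12 (adjusted p = 0.0193), but not without controls 3 and 4, at 0.10 (adjusted p = 0.102). Vwf, Vcan, Acan and Timp3 were chosen after their values were seen.

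All 4 enzymes that glycosylate thrombospondin-type repeats were tested, and 0 passed (edgeR; 0 at an unadjusted p under 0.05), with a median log2 fold change of 0.014. Pofut2, which adds the O-linked fucose, was at 82.9 ± 4.96 CPM in controls and 82.7 ± 1.39 with Areg (SD, n = 5; adjusted p = 0.988), and it was called higher with the trend removed (log2 fold change 0.17, adjusted p = 0.00645). B3glct, which extends that fucose, was at 11.04 ± 1.23 and 11.49 ± 1.64 CPM (adjusted p = 0.754). The C-mannosyltransferase genes Dpy19l1 and Dpy19l3 had adjusted p of 0.840 and 0.246. Without controls 3 and 4, the numbers higher and lower were 0 and 1 of the ADAMTS protease genes outside the 10, 0 and 3 of the ADAMTS-like genes, 2 and 4 of the substrates, 1 and 2 of the inhibitors, convertases and receptors, and 0 and 0 of these enzymes.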

How the data were processed

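Poly-A RNA libraries, 5 labelled control and 5 labelled Areg, were analysed. The deposited files hold, per transcript, estimated counts (expected counts, not whole) and TPM, per the file headers; the TPM are scaled to transcript length and library total by the authors' kallisto run. Per the submitters' processing notes, the tools were bcl2fastq 2.19, kallisto 0.44.0 and DESeq2, and the build was GRCm38.p6. Which transcripts were indexed, and whether strand was used, is not given in the sources used here, so reads of Adamts2, Adamts4, Adamts7 and Adamts9, which overlap genes on the opposite strand, may be shared with these.

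Of 118489 transcripts, 116816 were joined to 36047 genes through GENCODE M21; the 1673 others (0.736 to 0.778% of estimated counts) were left out. Estimated counts were summed per gene, rounded and compared in edgeR 4.0.16 (R 4.3.3) by the robust quasi-likelihood test with TMM factors and without covariates. filterByExpr (minimum count 10, minimum total 15) kept 13362 genes, over which p-values were Benjamini-Hochberg adjusted (threshold 0.05). The SE is the fold change over the root of F, and the biological coefficient of variation came to 9.37%. Both kinds of test were tested on simulated data. GC content is the mean over a gene's transcripts, weighted by TPM.

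Members and lists were chosen with earlier results of these data known. All 10 members were named, of each other list up to 4 tested genes with the smallest p, and the 3 protein-coding genes most like each called member; 1 of the genes this rule picks is not reported here. Alternatives were DESeq2's size factors, other filters, DESeq2 1.42.0, limma-voom (limma 3.58.1), an effective length offset, log2(TPM + 1) and log2(TPM + 0.1) by limma-trend, a smooth trend in length and GC content removed per library (mgcv 1.9.3), the replicate number as a block, each library left out, CPM per kilobase for the order of levels and shares of estimated counts for transcripts. Leaving out controls 3 and 4, with and without the trend removed, was chosen after seeing the data.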

Additional observations from a re-analysis of the deposited data

Results flagged for a closer look

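In 6 of 72 groups of 5 libraries checked, 1 library lay far from the others by Dixon's test at the 95% level, and chance flags about 1 in 20 groups. Control 3 was low for Adamts12, at 26.2 CPM against 32.5 to 33.2 in the other controls. Control 3 was also low for Reck, at 21.4 CPM against 23.4 to 23.8, and for the share of Adamts9 that came from Adamts9-201, at 84.0% against 86.4 to 87.2%. Control 5 was low for Adamts7, at 16.9 CPM against 20.4 to 21.8. Areg library 2 was low for Adamts3, at 4.20 CPM against 4.91 to 5.15 in the other Areg libraries. Areg library 1 was low for the share of Adamts13 that came from Adamts13-201, at 96.7% against 98.7 to 99.1%.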

How the results depend on the processing

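Of the 218 member values under alternatives, 186 kept their direction and side of the threshold, 24 lost the call, 6 gained it and 2 reversed. Members called were 3 of 10, but 1 (Adamts2) with the effective length offset and 0 on log2(TPM + 1) and on log2(TPM + 0.1) (limma-trend; 4 at an unadjusted p under 0.05 in each). They ranged from 1 to 3 when each library was left out, with Adamts2 alone called without control 5 or Areg library 2, 3 or 4. Without controls 3 and 4 they were 4, with Adamts1 added (15.9% of all genes tested were called). Genes called were 2226, but 1149 with the length offset, 856 on log2(TPM + 1) and 868 on log2(TPM + 0.1), and 1364 (without Areg library 2) to 2314 with a library left out; the cause was not tested. Higher calls were 1106 and lower calls 699 with the trend removed, against 1114 and 1112. The order of levels kept 2 overlapping neighbours throughout (2 to 2), also as CPM per kilobase, and 0 transcript shares passed under any alternative (0 to 0). Adamts15 has no value under DESeq2, which gave it no adjusted p, nor with at least 1 CPM in 5 libraries required, and its 4 to 21 counts limit its precision.

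With the replicate number as a block 2357 genes and the same 3 members were called, and 0 transcript shares passed (lowest adjusted p 0.333, where the smallest paired p is 0.0625). The block changed no call of a member. Deviations from the group means correlated only weakly between same-numbered libraries (0.055, 0.091, -0.046, 0.14 and 0.0033). Between libraries of differing number the correlations ran from -0.20 to 0.13. Such low values cannot decide whether the numbers pair the samples, and the labels do not say.

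Signs reversed as follows, in log2 fold change. Adamts7 was 0.062 with the trend removed and 0.062 with it removed without controls 3 and 4, and Furin 0.018 and 0.030. Dpy19l1 was -0.042 with the length offset, -0.026 with the trend removed, -0.063 on log2(TPM + 1), -0.067 on log2(TPM + 0.1), -0.047 without controls 3 and 4 and -0.052 with the trend removed too. Pofut2 was 8.0e-05 with DESeq2's size factors, 0.017 without a filter, 0.0022 by DESeq2, 0.0025 by limma-voom, 0.17 with the trend removed, 0.042 without controls 3 and 4 and 0.13 with the trend removed too. With each library left out, B3glct ranged from -0.030 to 0.11, Dpy19l1 from -0.011 to 0.083 and Pofut2 from -0.022 to 0.037.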
